A study of Mus musculus with 19 samples.

Results

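Transcript levels of 10 genes of FOXO signalling and muscle wasting were measured with 16 probes on 1-colour Agilent whole mouse genome arrays, out of 41174 probes and 27792 gene names on each array. The genes were Foxo1, Foxo3, Foxo4, Fbxo32, Trim63, Klf15, Ddit4, Bnip3, Gadd45b and Eif4ebp1. They were chosen by name, and every non-control probe with such a name in the scanner files was kept, which gave 6 genes with 2 probes and 4 genes with 1. A second Trim63 probe has its gene name in the muscle files, and a transcript identifier in its place in the cell files.

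The study used 19 arrays, 1 per sample. Of these, 12 held C2C12 cells, a mouse myoblast line that can be made to fuse into myotubes, and 7 held soleus, a slow muscle of the lower leg. All C2C12 cultures had been transfected and then selected with 500 µg/ml hygromycin B and 500 µg/ml geneticin, and were taken as sub-confluent myoblasts 48 h after seeding. The 6 WT cultures carried empty plasmids and the 6 HDAC4&5 cultures carried plasmids with wild-type human HDAC4 and HDAC5, class IIa histone deacetylases that hold back MEF2-driven transcription. The soleus came from male C57BL6J mice of 12 weeks, fasted for 5 h, of which 3 were db -/+ heterozygotes (Con) and 4 were their db +/+ littermates (db), which lack a working leptin receptor and grow obese in the whole body, so that muscle is not the only tissue affected. The labels do not say whether cultures of a group were separate transfections or clones, so the p-values for cells measure the spread between these samples, which may be technical. In whole muscle, fewer cells of a type and less RNA per cell cannot be told apart.

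FOXO transcription factors are held in the cytoplasm when insulin signalling activates Akt, and enter the nucleus when that signal falls. In muscle they are known to switch on ubiquitin ligases that mark myofibrillar proteins for the proteasome, genes for autophagy of mitochondria, and brakes on protein synthesis. Glucocorticoids act on several of the same genes through their receptor and through KLF15, and loss of the motor nerve acts on them through HDAC4, HDAC5 and myogenin.

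Values are given as log2 of the processed signal minus the 75th percentile of the same array, so that 0 is the 75th percentile. That percentile was 153 to 1691 intensity units, and between 46.8% and 57.5% of spots were well above background. The mouse Hdac5 probe, a check of the overexpression as far as it detects the human transcript, was higher by 1.42 (SE 0.27, adjusted p = 0.000388 from limma) in HDAC4&5 cells, while the mouse Hdac4 probe differed by -0.05 (SE 0.05, adjusted p = 0.366). Whether these probes detect the human transcripts was not tested. Markers of myoblasts and of muscle, taken as 1 list, were mostly low in the HDAC4&5 cells. Of 13 myoblast and muscle markers, 11 were tested, 10 were lower and 1, Myh7, was higher, and 6 (Myod1, Myf5, Pax7, Ckm, Myl2 and Myl3) were well above background on no HDAC4&5 array, Myf5 and Pax7 being so on no WT array either. Of the 13, 11 were well above background on all WT arrays and 4 on all HDAC4&5 arrays. Markers tested only through the WT group were likely to come out lower, and their HDAC4&5 values are partly background. The mean level of the 11 markers was 1.08 to 1.68 on WT arrays and -4.61 to -4.04 on HDAC4&5 arrays. That of 4 fibroblast markers was 0.77 to 1.05 and 2.07 to 2.24. The part of these shifts in the differences below was not tested.

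Promoters are shown first for the genes whose brighter probes had the largest rise and the largest fall among the 10 in C2C12 cells, Foxo1 and Trim63. They are the 250 bases before the RefSeq start on GRCm38.p6, both on the + strand, at chr3:52268087-52268336 for Foxo1 and chr4:134314870-134315119 for Trim63. Capitals mark matches to the letters GTAAACA (a FOXO motif), GAACANNNTGTTC (a glucocorticoid receptor palindrome) or CAGCTG (an E-box used by myogenic factors), searched on both strands.
Foxo1: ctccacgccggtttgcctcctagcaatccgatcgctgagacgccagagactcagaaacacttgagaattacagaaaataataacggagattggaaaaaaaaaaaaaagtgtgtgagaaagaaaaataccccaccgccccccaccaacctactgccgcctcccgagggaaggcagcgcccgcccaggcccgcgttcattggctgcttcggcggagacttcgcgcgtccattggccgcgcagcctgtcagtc
Trim63: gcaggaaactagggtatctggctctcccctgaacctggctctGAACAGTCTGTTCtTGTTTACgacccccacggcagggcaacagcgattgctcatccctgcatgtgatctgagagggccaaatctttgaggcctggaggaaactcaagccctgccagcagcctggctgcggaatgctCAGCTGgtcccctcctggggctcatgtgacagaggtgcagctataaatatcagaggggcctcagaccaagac

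The Trim63 window held all 3 motifs. The palindrome lay from -208 to -196 before the start, the FOXO motif, on the other strand, from -194 to -188, and the E-box from -72 to -67, with no overlap between them. The Foxo1 window held none of them. Of 32851 promoter windows of this length, 3.17% held the FOXO letters, 0.0396% (13 windows) the palindrome and 13.0% the E-box. The promoter table had entries for 7 of the 10 genes, and Trim63 was the only gene of these 7 with a match to any of the 3. Fbxo32, Foxo4 and Eif4ebp1 had no entry. A match is a description of letters and not evidence of binding.

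In C2C12 cells, the question was how these genes differed between cultures carrying HDAC4 and HDAC5 and cultures carrying empty plasmids. Foxo1 and Eif4ebp1 rose by about as much as Fbxo32 and Gadd45b fell, Trim63 fell furthest (with normexp background correction Gadd45b did, at -1.27 against -1.23), and Bnip3 rose slightly. Of the 10 genes, 7 could be tested, since the brightest probe had to be well above background throughout at least 1 of the 2 groups. Of these 7, 6 had an adjusted p under 0.05 (limma, adjusted over all probes), 3 higher (Foxo1, Bnip3 and Eif4ebp1) and 3 lower (Fbxo32, Trim63 and Gadd45b). Trim63 was tested through the WT group alone, which made a fall likely. Over all 14104 genes tested, 69.0% passed, 36.4% higher and 32.7% lower, so that most of the genes tested differed between these cultures. The 6 genes were also those whose groups did not overlap, as for 52.4% of all tested probes (27.4% with HDAC4&5 above WT). In the authors' deposited matrix the split of all called probes changed from 7824 higher and 6827 lower to 4149 higher and 6434 lower, and the 10 genes gave 2 higher and 3 lower, without Bnip3.

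**Figure D1:**
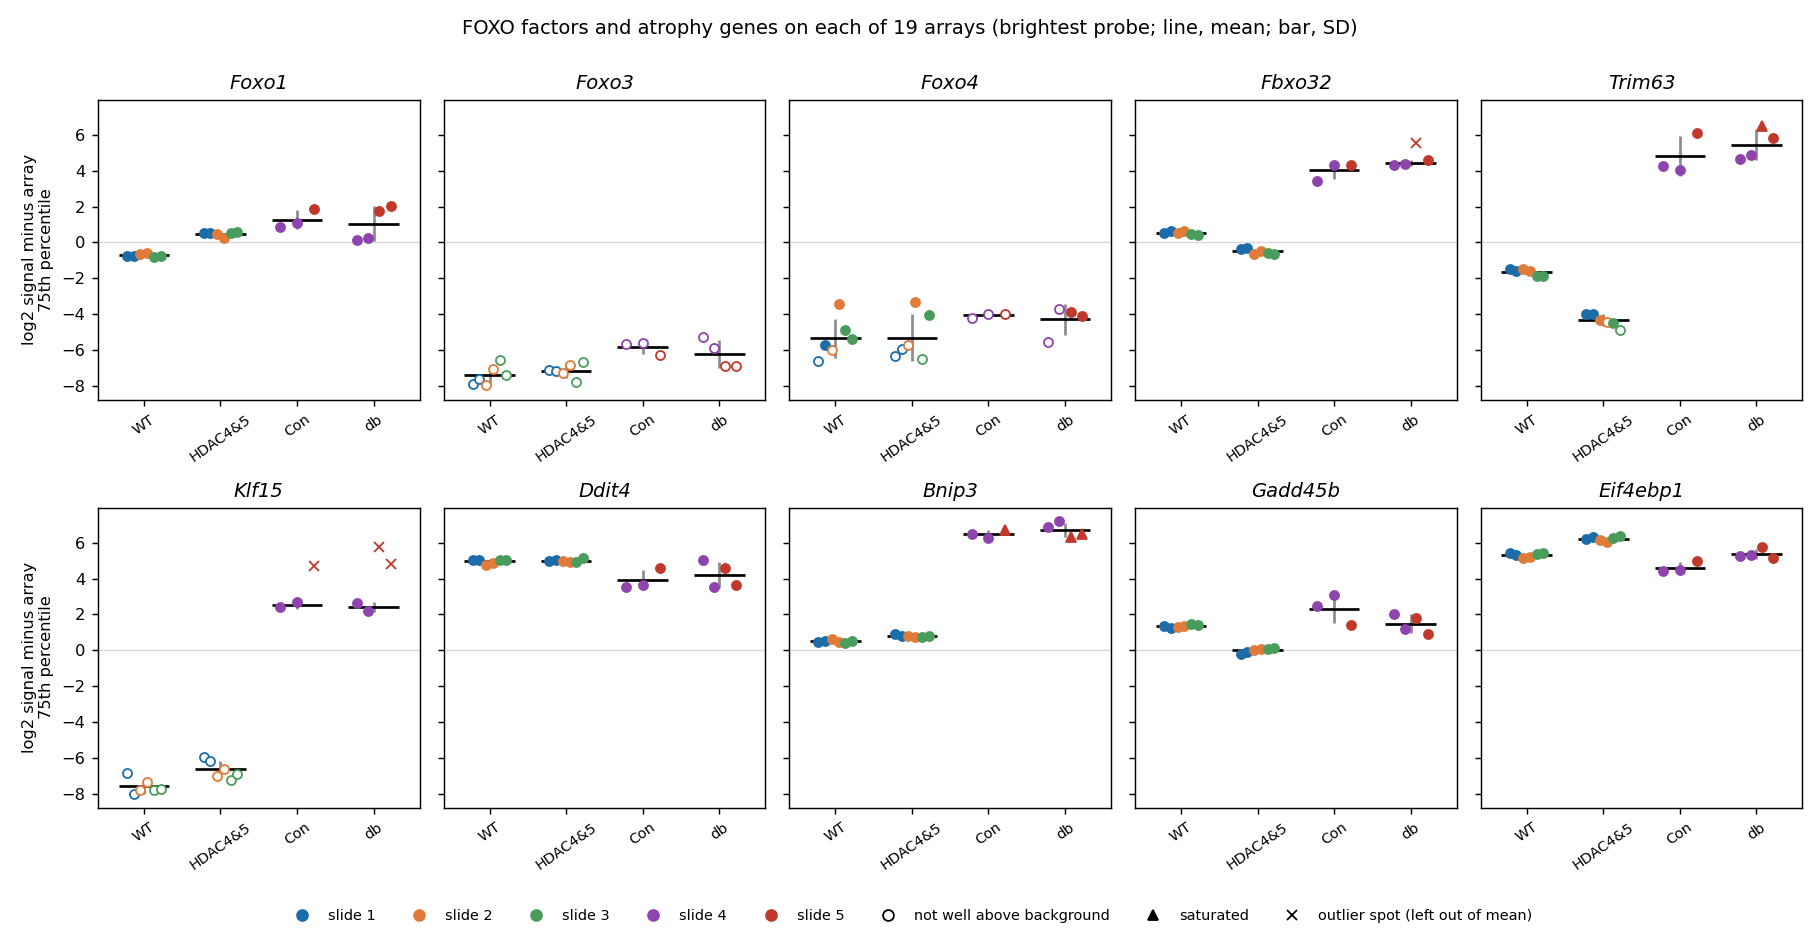
Level of each of the 10 genes (brightest probe) on all 19 arrays, as log2 signal minus the array's 75th percentile, by group, with the mean as a line and the SD as a bar. Foxo1 and Eif4ebp1 are higher, and Fbxo32, Trim63 and Gadd45b lower, on all 6 HDAC4&5 arrays than on all 6 WT arrays, while the Con and db points overlap for every gene but Eif4ebp1. The colour gives the slide, open points were not well above background, and crosses were left out of the mean.

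Among the FOXO factors chosen, only Foxo1, which is known to take part in the atrophy programme after fasting, could be tested. At its brighter probe, chr3:52153289-52153348 on mm9, the lowest, median and highest of the 6 WT arrays were -0.78, -0.76 and -0.61, and those of the 6 HDAC4&5 arrays 0.27, 0.51 and 0.56. Every HDAC4&5 array lay above every WT array. Foxo1 rose by 1.20 (SE 0.06, adjusted p = 8.22e-10 from limma), or 2.30-fold, between means of -0.72 ± 0.07 and 0.48 ± 0.11 (SD, n = 6 each). The second probe, chr3:52150183-52150242, gave 1.22 (SE 0.07, adjusted p = 2.81e-09), and its 6 HDAC4&5 arrays also lay above its 6 WT arrays. Within the 3 slides the brighter probe differed by 1.29, 1.01 and 1.30.

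Foxo3 and Foxo4, its close relatives, had no usable level in these cells. Both Foxo3 probes (chr10:41905752-41905811 and chr10:41900547-41900606) were well above background on none of the 19 arrays, so that neither a level nor a difference can be given in either tissue. The Foxo4 probe (chrX:98454216-98454275) was well above background on 4 of 6 WT and 2 of 6 HDAC4&5 arrays, with ranges of -6.59 to -3.43 and -6.48 to -3.31 that overlapped almost wholly, and was not tested.

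The 2 ubiquitin ligases fell together. Fbxo32 encodes atrogin-1, the F-box subunit of a ligase that acts on translation and myogenic factors. On the WT arrays its probe, chr15:58011752-58011811, read 0.40 at the lowest, 0.53 at the median and 0.62 at the highest, against -0.62, -0.52 and -0.30 on the HDAC4&5 arrays. The groups stood apart, and Fbxo32 fell by 1.02 (SE 0.07, adjusted p = 3.37e-08 from limma), which is 2.02-fold lower. Within slides the difference was -0.90, -1.12 and -1.03.

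Trim63 encodes MuRF1, a RING-finger ligase bound to the sarcomere that marks thick-filament proteins. Its brighter probe, chr4:133885025-133885084, read -1.88, -1.57 and -1.49 (lowest, median, highest) on WT arrays and -4.86, -4.36 and -3.98 on HDAC4&5 arrays, of which 4 of 6 were well above background. No HDAC4&5 array came near the WT range. The probe passed the filter only through the WT group, which made a fall likely, and its HDAC4&5 values are partly background. Trim63 fell by 2.70 (SE 0.14, adjusted p = 1.83e-09 from limma), 6.50-fold lower, and within slides by 2.45, 2.83 and 2.81. With normexp background correction it fell by 1.23 (adjusted p = 0.0022), and a filter that asks for signal on every array of both groups leaves it out. The dimmer Trim63 probe, chr4:133873219-133873278, lies 11806 bases away and was well above background on no WT array and on 1 HDAC4&5 array, so it was not tested there.

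Klf15, a zinc-finger factor that glucocorticoids induce and that drives breakdown of branched-chain amino acids, was almost absent from the cells. Its brighter probe (chr6:90425007-90425066) was well above background on none of the 12 C2C12 arrays and its dimmer probe (chr6:90424191-90424250) on 1 WT array, so that no difference is given.

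The remaining stress and growth genes went different ways. Gadd45b, a stress-induced growth-arrest gene, read 1.22, 1.36 and 1.45 (lowest, median, highest) on WT arrays and -0.18, 0.04 and 0.15 on HDAC4&5 arrays at its brighter probe, chr10:80394890-80394949. The groups did not overlap. Gadd45b fell by 1.35 (SE 0.06, adjusted p = 5.83e-10 from limma), 2.55-fold lower, and by 1.59 (SE 0.05, adjusted p = 2.19e-11) at the second probe, chr10:80394367-80394426. Bnip3, a receptor that brings mitochondria to the autophagosome, read 0.41, 0.50 and 0.61 on WT and 0.75, 0.78 and 0.89 on HDAC4&5 arrays at chr7:146083077-146083136. These groups were close but apart, and Bnip3 rose by 0.30 (SE 0.05, adjusted p = 8.54e-05), a fold of 1.23. In the deposited matrix the difference was 0.12 and did not pass (adjusted p = 0.526).

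Eif4ebp1 encodes 4E-BP1, which blocks the cap-binding factor eIF4E until mTORC1 phosphorylates it. Its bright probe, chr8:28385887-28385946, read 5.14, 5.32 and 5.45 on WT arrays and 6.05, 6.23 and 6.38 on HDAC4&5 arrays. The groups were well apart, and Eif4ebp1 rose by 0.91 (SE 0.07, adjusted p = 9.11e-08 from limma), a fold of 1.89. The second probe, chr8:28386065-28386124, starts 178 bases away and had a much dimmer signal. It was higher by 1.35 (SE 0.45, adjusted p = 0.0173) with overlapping groups, and did not pass without slide 3 (adjusted p = 0.0812). Ddit4 encodes REDD1, which glucocorticoids and hypoxia induce to inhibit mTORC1. It read 4.78, 5.04 and 5.04 on WT arrays and 4.90, 4.98 and 5.12 on HDAC4&5 arrays at chr10:59412486-59412545, fully overlapping, with a difference of 0.02 (SE 0.06, 95% interval -0.12 to 0.15, adjusted p = 0.815).

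**Figure D2:**
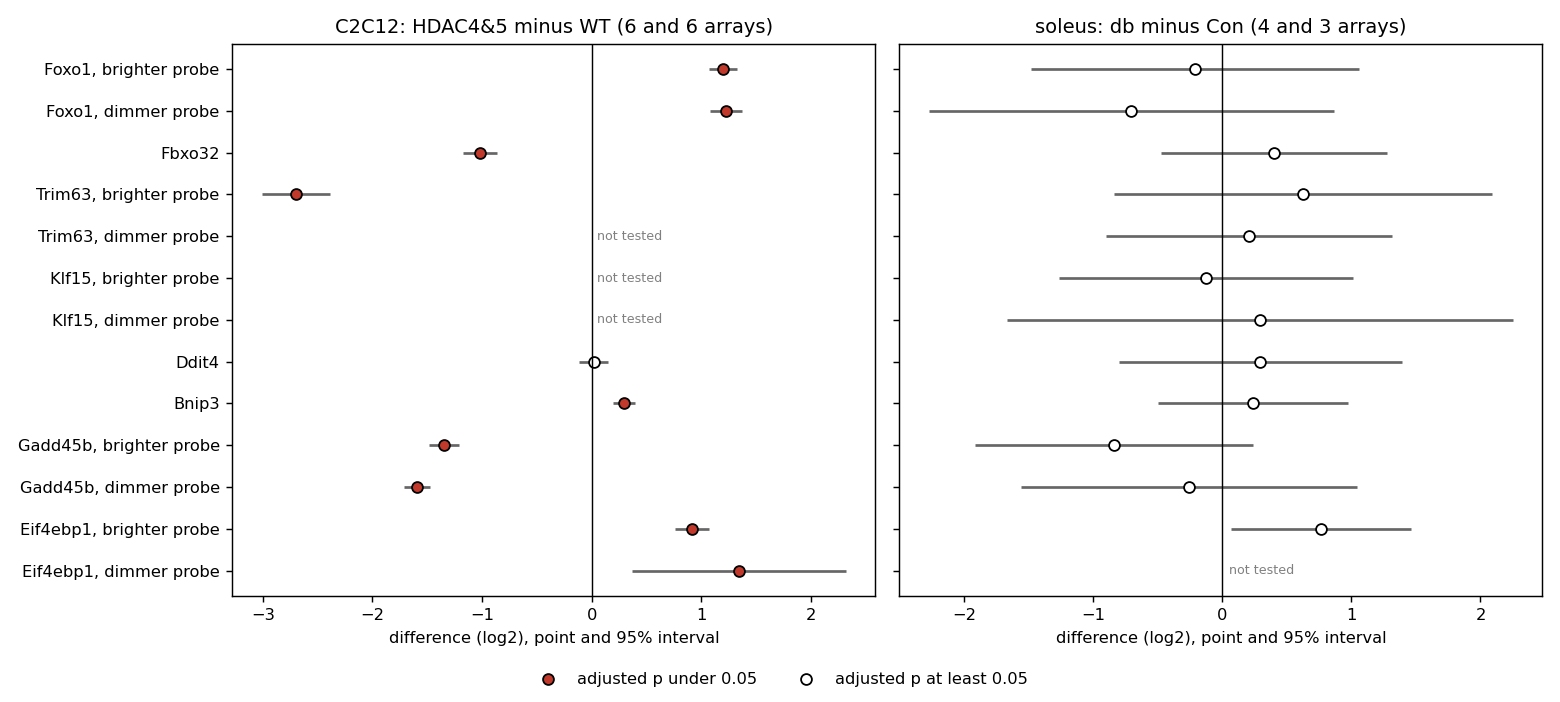
Difference between groups at each tested probe of the 10 genes, on the log2 scale with its 95% interval from limma, in C2C12 cells (left) and soleus (right). The C2C12 differences run from -2.70 for Trim63 to 1.35 for the dimmer Eif4ebp1 probe, and 9 of the 10 tested probes are filled as called (68.4% of all probes were), while none of the 12 soleus probes is, with much wider intervals.

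In soleus the question was how the same genes differed between obese db mice and their lean littermates. None of the 8 genes tested passed the adjusted p of 0.05 in limma, against 0.00770% (1 gene) of all 12989 genes and 0.00541% of all probes tested. At an unadjusted p under 0.05 1 of the 8, Eif4ebp1, passed, against 6.43% of all probes, and it was also the only 1 in the methods' t-test at that limit. With slide as a block none passed the adjusted p, against 0.173% of probes, and Eif4ebp1 was again the 1 gene at an unadjusted p under 0.05, against 17.9%. The median SE over all soleus probes was 0.43, against 0.09 in cells. Markers of other cells were examined beside these genes. All 7 adipocyte markers were tested, each was well above background on at least 1 array of both groups, 3 had an unadjusted p under 0.05, and none was called (1 with slide as a block). Their mean level ran from 2.40 to 3.20 on Con arrays and from 3.24 to 3.59 on db arrays without overlap. The mean levels of 3 of the 7 pathway lists described below were apart in the same direction, at 2.14 to 2.22 and 2.36 to 2.63 for FOXO regulators, 1.67 to 2.17 and 2.21 to 2.45 for autophagy genes, and 2.38 to 2.75 and 2.90 to 3.16 for glucocorticoid genes. Those of the other lists overlapped, such as 3.40 to 3.71 and 3.05 to 3.91 for ubiquitin ligase and proteasome genes. Among single soleus probes, 5.73% had db above Con without overlap. List means are not like single probes, and no such share was computed for them, so the 3 lists cannot be read against it. Outlier spots were left out of these means, so that different arrays can rest on different genes. Of 5 endothelial markers 2 had an unadjusted p under 0.05. The median difference of these 5 was -0.36, and their mean level ran from 1.53 to 2.31 on Con arrays and from 0.84 to 1.66 on db arrays, with overlap. The part of the adipocyte and endothelial markers in the values below was not tested.

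Eif4ebp1 was the gene whose groups stood apart. The Con arrays read 4.39, 4.48 and 4.96, and the db arrays 5.28, 5.30, 5.77 and 5.17. All 4 db arrays lay above all 3 Con arrays, a pattern shown by 10.2% of all soleus probes in either direction and by 5.73% with db above Con. The difference was 0.77 (SE 0.30, 95% interval 0.07 to 1.46, adjusted p = 0.758 from limma), with an exact permutation p of 0.0571, the smallest that 3 against 4 arrays allow (two-sided). It was 0.85 within slide 4 and 0.51 within slide 5, and 0.71 with slide as a block (adjusted p = 0.188).

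The ubiquitin ligases had higher means in db muscle that stayed within the spread between mice. Fbxo32 read 3.43, 4.33 and 4.32 on the Con arrays and 4.31, 4.35 and 4.62 on 3 db arrays, the spot on the array of db replicate 3 being marked as an outlier and left out. The groups overlapped, with a difference of 0.40 (SE 0.37, adjusted p = 0.902). With that spot kept it was 0.67, and without Con replicate 1 it was 0.10. Trim63 read 4.28, 4.03 and 6.12 on Con arrays and 4.63, 4.85, 6.46 and 5.81 on db arrays at its brighter probe. Its 2 slides differed by more than its groups, with Con at 4.16 on slide 4 and 6.12 on slide 5. The difference was 0.63 (SE 0.64, adjusted p = 0.913), with 0.58 within slide 4 and 0.01 within slide 5, where the spot of db replicate 3 was saturated, so that the slide 5 value is not exact. It was 1.28 without Con replicate 3 and 0.24 at the lowest when another array was left out. The dimmer probe gave 0.21 (SE 0.48, adjusted p = 0.969).

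Foxo1 differed between the slides. At the brighter probe the Con arrays read 0.86, 1.06 and 1.85 and the db arrays 0.16, 0.26, 1.75 and 2.01, so that on slide 4 both db arrays lay below both Con arrays and on slide 5 the values overlapped. The difference was -0.21 (SE 0.55, adjusted p = 0.972), with -0.75 within slide 4 and 0.03 within slide 5. The dimmer probe gave -0.70 (SE 0.68, adjusted p = 0.907), with -1.64 and 0.30 within the slides, and rested on the array of db replicate 1, which read -1.38 while the other 3 db arrays read 0.86, 1.37 and 1.60. Without that array the difference was -0.04. Foxo4 was well above background on 0 of 3 Con and 2 of 4 db arrays and was not tested.

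**Figure D3:**
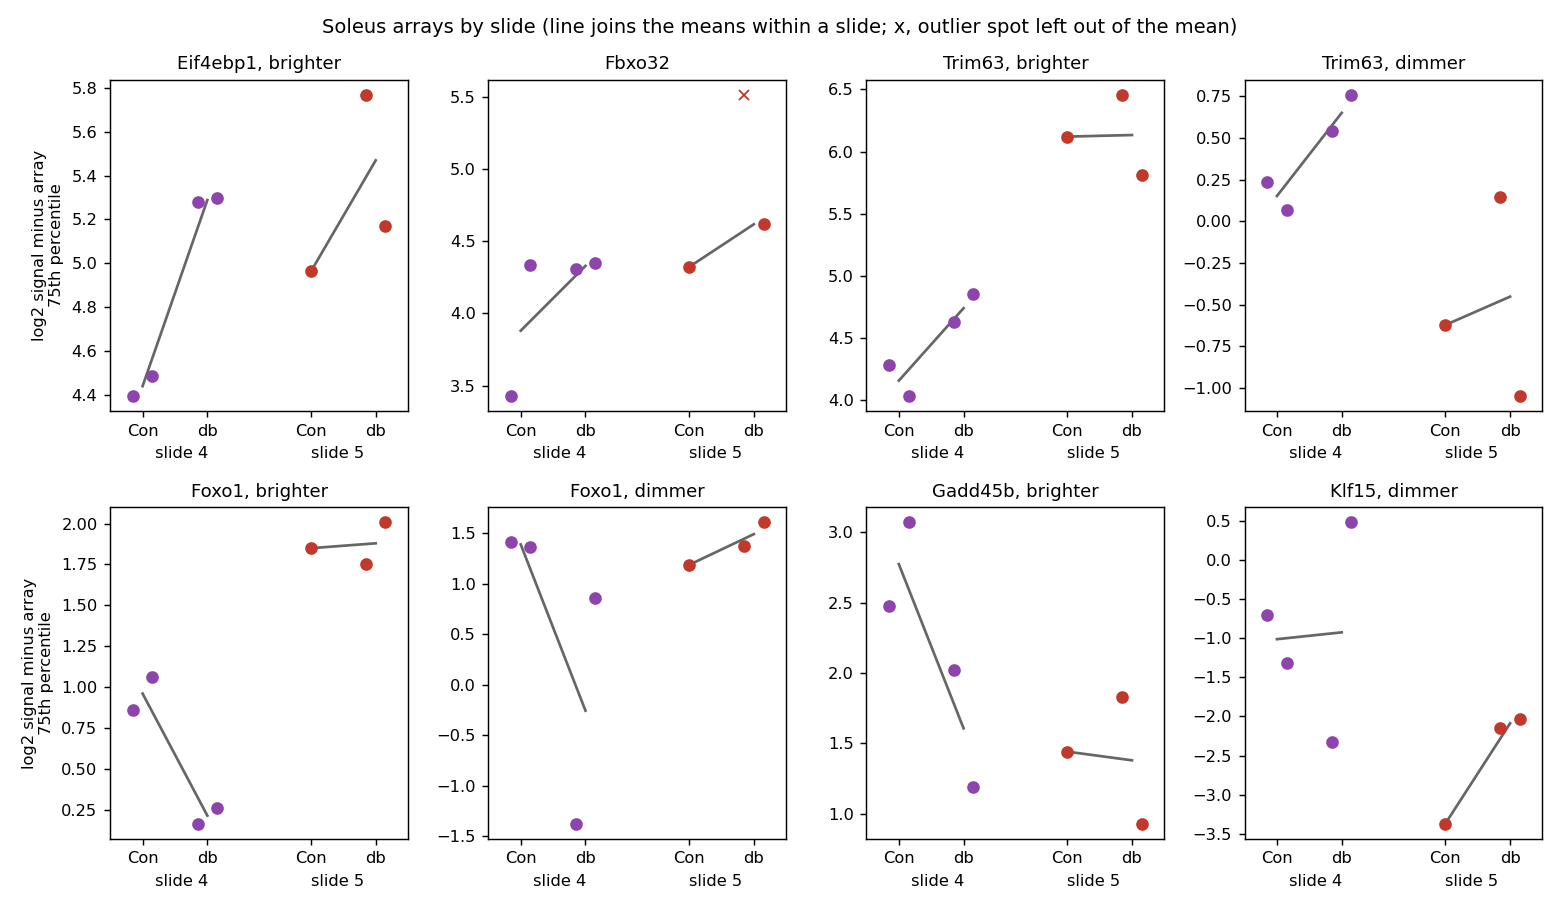
Soleus values of 8 probes by slide, as log2 signal minus the array's 75th percentile, with each panel on its own axis, points for arrays and a line joining the means of Con and db within a slide. Eif4ebp1 is higher in db on both slides (0.85 and 0.51), while Foxo1 at its dimmer probe is lower on slide 4 (-1.64) and higher on slide 5 (0.30).

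The other genes did not pass either. Gadd45b read 2.48, 3.07 and 1.44 on Con arrays and 2.02, 1.19, 1.83 and 0.93 on db arrays at its brighter probe, which overlap, with a difference of -0.84 (SE 0.47, adjusted p = 0.843) that came from slide 4 (-1.17) and not slide 5 (-0.06). Its second probe gave -0.26 (SE 0.57, adjusted p = 0.967). Ddit4 read 3.54, 3.63 and 4.57 against 5.06, 3.52, 4.58 and 3.67, a difference of 0.29 (SE 0.48, adjusted p = 0.952) with 0.71 on slide 4 and -0.45 on slide 5, which was 0.011 without db replicate 1 and 0.62 without Con replicate 3. Bnip3 read 6.46, 6.26 and 6.70 against 6.85, 7.19, 6.32 and 6.49, a difference of 0.24 (SE 0.32, adjusted p = 0.939). All 3 of its slide 5 spots were saturated, which limits what slide 5 can show, and the slides gave 0.66 and -0.30.

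Klf15 was well above background on every soleus array at both probes, but its readings were uneven and its probes differed in sign. The 3 spots of its brighter probe on slide 5 were marked as outliers, which left 2 Con arrays (2.39 and 2.69) and 2 db arrays (2.63 and 2.20), overlapping, and a difference of -0.13 (SE 0.45, adjusted p = 0.983). With the marked spots kept, at 4.68 for Con and 5.77 and 4.82 for db, the difference was 0.60, and 0.17 with slide as a block as well, alternatives of which the last was chosen after the values were seen. The dimmer probe read -0.70, -1.32 and -3.37 on Con arrays and -2.33, 0.49, -2.15 and -2.03 on db arrays, a difference of 0.29 (SE 0.85, adjusted p = 0.978) that was -0.50 without Con replicate 3 and -0.37 without db replicate 2.

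Across the 4 groups the genes fell into those that stood apart between cells and muscle and those that did not. The C2C12 and soleus arrays were on different slides and were scanned on different days, so that tissue and slide cannot be told apart, and levels are described without a test and only within a probe. For Fbxo32, Trim63, Klf15 and Bnip3 every soleus array lay above every C2C12 array. Fbxo32 and Trim63 had the order db, Con, WT, HDAC4&5, in which db and Con overlapped and the other neighbours were apart. For Bnip3 the order was db, Con, HDAC4&5, WT, again with overlap between db and Con alone. The Klf15 order was Con, db, HDAC4&5, WT, with cells below the background limit, and db and Con, like HDAC4&5 and WT, overlapped.

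For Foxo1 the order was Con, db, HDAC4&5, WT. At the brighter probe the range of HDAC4&5 cells (0.27 to 0.56), unlike that of WT cells, lay within that of db muscle (0.16 to 2.01). At the dimmer probe db muscle (-1.38 to 1.60) took in the WT cells (-0.79 to -0.60) as well. Gadd45b had the order Con, db, WT, HDAC4&5, with overlap of all neighbours but WT and HDAC4&5. Its second probe put the tissues the other way, in the order WT, Con, db, HDAC4&5 with WT apart from Con, so that no order of cells and muscle holds for this gene. Eif4ebp1 had the order HDAC4&5, db, WT, Con, with db and WT overlapping and the other neighbours apart. Ddit4 had the order HDAC4&5, WT, db, Con, in which neighbours overlapped, while Con (3.54 to 4.57) lay below both cell groups. Quantile normalization over all 19 arrays kept the full order of 5 of the 10 genes (Foxo1, Fbxo32, Trim63, Klf15 and Gadd45b). It exchanged db and WT for Eif4ebp1, db and Con for Bnip3, and HDAC4&5 and WT for Ddit4. It also changed the order of Foxo3 and Foxo4, whose values are mostly at background.

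The wider pathway was described with 145 genes in 7 lists, of which 144 were on the array and 138 were tested in C2C12 cells. There, 53 rose and 57 fell (79.7% called, against 69.0% of all genes), with a median difference of 0.03, against 0.05 for all genes tested. Among 20 FOXO regulators 7 rose, 6 fell and 7 did not pass (median -0.05). Usp7, a deubiquitinase that acts on FOXO proteins, rose by 0.78 (SE 0.06) and Crebbp, an acetyltransferase, by 0.71 (SE 0.10). Foxo6, the remaining member of the family, fell by 1.90 (SE 0.05), and Ywhaq, a 14-3-3 protein of the kind that holds FOXO in the cytoplasm, by 0.85 (SE 0.08). Foxo1 and Foxo6 thus moved in opposite directions.

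Of 23 ubiquitin ligase and proteasome genes tested 8 rose, 7 fell and 8 did not pass (median 0.16), with 8 in all called in the deposited matrix. The ligases Fbxo31 and Trim32 rose by 0.90 (SE 0.05) and 0.77 (SE 0.06). Trim54, the MuRF3 relative of Trim63, fell by 8.47 (SE 0.14), from 5.27 to -3.20. Asb2, a muscle ligase subunit, was not well above background on any HDAC4&5 array and was at least 3.72-fold lower there, a bound set by the dimmest probe that each array still detected.

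Of 20 autophagy genes 9 rose, 5 fell and 6 did not pass (median 0.19), but 7 in all passed without slide 1, with normexp correction or in the deposited matrix. Gabarapl1 and Atg4b, of the LC3 conjugation system, rose by 0.61 (SE 0.18) and 0.58 (SE 0.08), while Map1lc3a, which encodes an LC3 protein, fell by 2.11 (SE 0.06) and Wipi1, an early autophagosome protein, by 0.94 (SE 0.11). Of 18 other FOXO targets 6 rose, 11 fell and 1 did not pass (median -0.42). The stress gene Sesn3 rose by 1.58 (SE 0.09) and the myostatin receptor gene Acvr2b by 1.11 (SE 0.14). The fuel genes Lpl, for lipoprotein lipase, and Pdk4, which shuts off pyruvate oxidation, fell by 3.18 (SE 0.05) and 2.88 (SE 0.11).

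**Figure D4:**
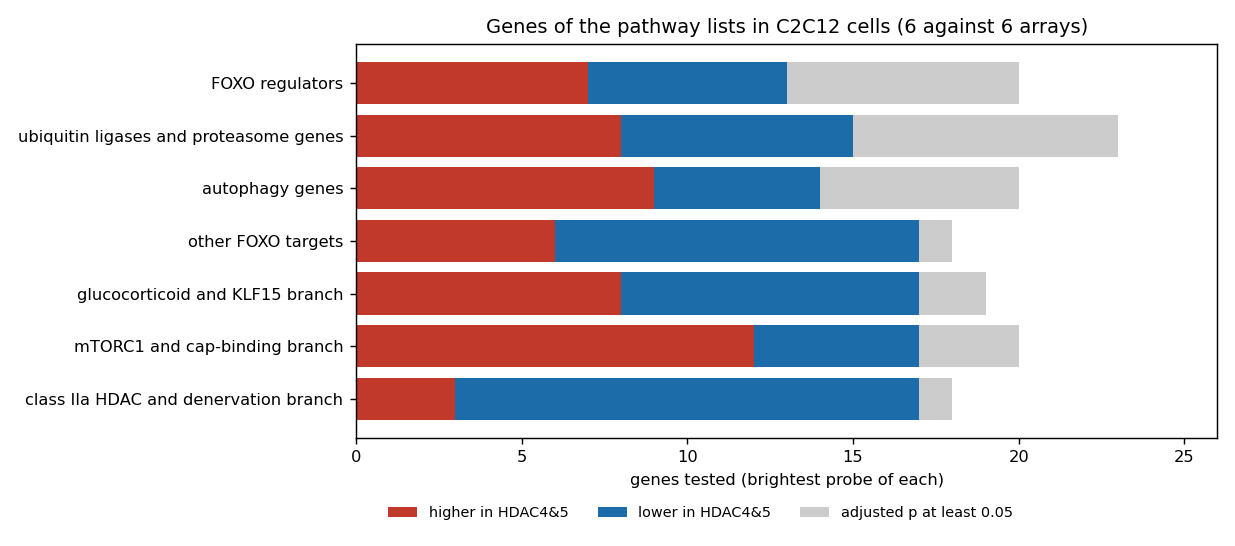
Number of genes of each pathway list tested in C2C12 cells that were higher, lower or not called at an adjusted p of 0.05 in limma. The list of class IIa HDAC and denervation genes has 14 of 18 lower, and the mTORC1 and cap-binding list 12 of 20 higher. Over all genes tested 36.4% were higher and 32.7% lower. Of the denervation genes 18 were well above background on all WT arrays and 13 on all HDAC4&5 arrays. For the mTORC1 list these counts were 18 and 20. Genes tested through a single group were likely to come out higher there.

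Of 19 genes of the glucocorticoid and KLF15 branch 8 rose, 9 fell and 2 did not pass (median 0.02). Prodh, which starts proline breakdown, rose by 2.04 (SE 0.08), and Hsd11b1, which makes active glucocorticoid, by 1.81 (SE 0.15), the latter being well above background on 3 of 6 WT arrays. Tsc22d3, the glucocorticoid-induced GILZ gene, fell by 2.21 (SE 0.07), and Bckdhb, a subunit of the branched-chain keto acid dehydrogenase, by 2.48 (SE 0.20), being well above background on 4 of 6 HDAC4&5 arrays. Hsd11b1 and Bckdhb were each tested through a single group, which made the direction of their differences likely.

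Of 20 mTORC1 and cap-binding genes 12 rose, 5 fell and 3 did not pass (median 0.22), with 10 in all called in the deposited matrix. Ddit4l, the relative of Ddit4, was well above background on no WT array and was at least 6.23-fold higher in HDAC4&5 cells, and Prkaa2, an AMPK catalytic subunit, at least 5.77-fold higher. Mtor fell by 1.18 (SE 0.09) and Deptor, an mTOR inhibitor, by 2.02 (SE 0.07). The kinase and its inhibitor thus fell together.

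Of 18 class IIa HDAC and denervation genes 3 rose, 14 fell and 1 did not pass (median -2.22). All 18 were well above background on every WT array, but only 13 on every HDAC4&5 array, which made a fall likely for the others. Besides Hdac5, Hdac7 rose by 0.74 (SE 0.11). The differences were -9.67 (SE 0.15) for Myog, the myogenin gene, and -8.87 (SE 0.21) for Chrng, the fetal acetylcholine receptor subunit, both called lower, with 4 and 3 of 6 HDAC4&5 arrays well above background. This list shares Myog with the muscle markers. Of the list genes named for C2C12 cells and detected throughout both groups, the highest adjusted p from limma was 0.0103, for Gabarapl1. Asb2, Ddit4l, Prkaa2, Hsd11b1, Bckdhb, Myog and Chrng passed the filter through a single group. That made the direction of their differences likely, so their p-values are left out of this comparison.

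In soleus 137 genes of these lists were tested and none was called by limma. At an unadjusted p under 0.05, 4 of the 20 glucocorticoid and KLF15 genes passed, and 1 each of the FOXO regulators, the autophagy genes and the class IIa HDAC and denervation genes. Together these were 7 of 137 genes (5.11%), against 6.43% of all soleus probes. In these 2 functional branches the largest differences with 1 sign on both slides were those of Per1 and Fkbp5 (glucocorticoid) and Musk and Prkd1 (denervation). Per1, a clock gene that glucocorticoids induce, differed by 2.98 (SE 0.37, adjusted p = 0.182), with 3.41 and 2.21 on the slides, and it alone passed with slide as a block (adjusted p = 0.0438), while no gene of its list passed with the replicate number as a block. Fkbp5, a glucocorticoid-induced co-chaperone of the receptor, differed by 1.47 (SE 0.51, adjusted p = 0.680). Musk, the kinase of the neuromuscular junction, differed by 1.68 (SE 0.40, adjusted p = 0.469) and the kinase gene Prkd1 by 0.99 (SE 0.45).

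From the other lists, the 2 largest differences with 1 sign on both slides are given as values. The differences were 0.97 for Ywhae (0.58 and 0.27 within the slides and 0.45 with slide as a block) and -0.68 for Stk4, a kinase that acts on FOXO. The ligase gene Fbxo40 gave 1.14 and the proteasome deubiquitinase gene Usp14 0.90. For autophagy, Atg7, well above background on 1 of 3 Con arrays, gave 1.01 and the mitophagy receptor gene Bnip3l 1.00. Txnip, a FOXO and glucose-responsive gene, gave -1.01 and Acvr2b 0.86, and in the mTORC1 list Mtor gave 0.66 and Akt1s1 0.60. None of these 10 had an adjusted p under 0.05, and their SE was 0.31 (Akt1s1) or more.

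The genes most like the members over the 19 arrays were named by Pearson r among 7153 genes well above background on every array. They were Egfr (0.97) and Hspa9 (0.96) for Foxo1, Ormdl1 (0.91) and Slc7a6 (0.91) for Ddit4, Tcaim and the unnamed transcript TC1589973 (both 1.00) for Bnip3, 2010004M13Rik and Tcf4 (both 0.95) for Gadd45b, and Sgf29 (0.95) and Trip4 (0.94) for Eif4ebp1. The 19 points are 4 groups on 5 slides in 2 tissues, so that these values mostly describe group and slide levels.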

How the data were processed

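The 19 samples were grouped by their GEO titles. The authors scanned 1-colour arrays, extracted spots with Agilent Feature Extraction 9.5.1.1 per the submitters' processing notes, and deposited mean, background and processed signal intensity per spot, the latter background-subtracted but not scaled between arrays. A deposited matrix was taken as a ratio of processed signal. Its cell and Con 3 columns matched the scanner files of the same name up to a constant. Its db 1 and 2 columns matched the files of db 3 and 4 instead. The Con 1 and 2 and db 3 and 4 columns matched no scanner file closely. The matrix was therefore used by group only. Probe coordinates are the files' own, on mm9. Current RefSeq symbols replaced the array's names where an accession matched (27198 probes).

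Values are log2 of processed signal minus the array's 75th percentile, with control and outlier-marked spots left out, saturated spots kept and spots of a probe averaged. The probe with the highest mean over 19 arrays stood for a gene. Probes detected well above background throughout 1 or both groups, with at least 2 values in each, were tested on the log2 scale by limma 3.58.1 (R 4.3.3), separately in cells and soleus, with Benjamini-Hochberg adjustment over all probes. The fit was tested on simulated data. Exact permutation tests were two-sided. The number of arrays limits the precision.

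The 10 genes, the lists and the motifs were chosen with earlier results of these data known. From each list the text names the 2 largest rises and 2 largest falls past the adjusted p with no overlap of groups, or, where none passed, the 2 largest differences with 1 sign on every slide. Marker lists were muscle, adipocyte, erythrocyte, macrophage, fibroblast, endothelial and epithelial; of the last, 1 gene was tested in each tissue, of erythrocytes 1 in cells and 2 in soleus, of macrophages 2 and 5, and of endothelium 0 and 5, and in soleus none of any marker list was called.

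Slides 1 to 3 each held 2 WT and 2 HDAC4&5 arrays, slide 4 held 2 Con and 2 db arrays, and slide 5 held 1 Con and 2 db arrays. Deviations from the group mean correlated between arrays sharing a replicate number, with r of 0.37 to 0.70 in 6 cell pairs and 0.45 to 0.73 in 3 soleus pairs. For arrays sharing only a slide r was 0.36 to 0.72 and 0.36 to 0.80, and across slides -0.64 to 0.10 and -0.77 to -0.38. The ranges were thus much the same for a shared number as for a shared slide alone. No pairing by number beyond the slide was shown. Within a group, r between arrays was at least 0.855 and no pair was identical. Alternatives were quantile normalization, normexp correction (offset 50), the deposited matrix, other filters, outlier spots kept, slide or replicate number as a block, all probes of a gene averaged, the methods' t-test, a fold of 1.5, and slides or arrays left out.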

Additional observations from a re-analysis of the deposited data

Results flagged for a closer look

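Of 29 groups of 4 to 6 arrays in which a probe of the 10 genes was well above background throughout, 2 held an array far from the others of its group, where 1.45 would be picked out by chance (1 in 20). The array of HDAC4&5 replicate 4, on slide 2, read 0.27 for Foxo1 at its brighter probe, below the other 5 arrays of its group (0.50 to 0.56) but above every WT array. The array of db replicate 2, on slide 4, read 0.49 for Klf15 at its dimmer probe, while the other 3 db arrays read -2.33 to -2.03.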

How the results depend on the processing

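In C2C12 cells, the directions and calls of Foxo1, Fbxo32, Trim63, Gadd45b and Eif4ebp1 (brighter probe) held under every alternative that gave a value, slides left out included, except that the stricter filter gave none for Trim63, and the count of called genes among the 10 stayed between 5 and 7. The count of all called probes went from 14651 to 8017 with a fold of at least 1.5 and to 9642 genes with all probes of a gene averaged. Bnip3 did not pass in the deposited matrix (0.12). Ddit4, which passed nowhere, changed sign to -0.023 with quantile normalization, -0.083 with normexp, -0.16 in the deposited matrix and -0.024 without slide 2. The cause of these changes was not tested. Without each slide in turn, 12812 to 14443 probes and 6 of the 10 genes were called.

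In soleus the count of called genes among the 10 was 0 under every alternative except 1, the methods' t-test before adjustment, which gave 1. The count of all called probes was 1, and 2 with quantile normalization, 0 with normexp, 0 in the deposited matrix, 0 with the stricter filter, 32 with slide as a block, 27 with outlier spots kept as well, and 3 and 1401 in the methods' t-test after and before adjustment. Leaving out each array in turn gave 0 to 2. None of these differences passed, and several turned. Foxo1 (brighter probe) turned to 0.066 in the matrix. For Klf15, the sign of the dimmer probe turned to -0.057 with both probes averaged. The brighter Klf15 probe turned to 0.17 with normexp, 0.77 in the matrix, 0.60 with outlier spots kept and 0.17 with slide as a block as well. Bnip3 turned to -0.023 with quantile normalization, and Gadd45b (second probe) to 0.069 with the replicate block. With arrays left out, the ranges that crossed 0 were -0.53 to 0.086 for Foxo1 (brighter), -0.052 to 0.59 for Trim63 (dimmer), -0.50 to 0.84 and -0.34 to 0.089 for Klf15 (dimmer, brighter) and -0.75 to 0.069 for Gadd45b (second). Ranges on 1 side of 0 were 0.011 to 0.62 for Ddit4, 0.082 to 0.37 for Bnip3 and -1.28 to -0.47 for Gadd45b (brighter).

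With the replicate number as a block, 16286 C2C12 and 1 soleus probe were called, with 6 and 0 of the 10 genes, and no call among the 10 changed. Quantile normalization over 19 arrays kept the group order of 5 of 10 genes. The median difference of all C2C12 probes was 0.05, and 0.16 with normexp, -0.09 in the matrix and 0.27 with no filter, and that of soleus probes 0.02, with 0.25 in the matrix and -0.22 with no filter. Dim signals limit Foxo3, Foxo4 and, in cells, Klf15, and saturation limits Bnip3 and Trim63 on slide 5.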
